A study of Mus musculus with 4 samples.

Results

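Dendritic cell identity genes are 10 genes by which the branches of the dendritic cell lineage are told apart. They were taken by symbol from a table of 24415 Entrez gene identifiers, and all 10 were found. The plasmacytoid set held 5 genes (Siglech, Tcf4, Irf8, Runx2 and Cox6a2) and the conventional set the other 5 (Irf4, Zbtb46, Id2, Batf3 and Cd209a). Irf8 and Irf4 serve both branches, and each was placed in 1 set. RNA sequencing compared bone marrow cells from inducible HIF-1α mice (2 libraries) with those from wild-type mice (2 libraries). HIF-1α is the oxygen-regulated subunit of the transcription factor HIF-1, and the induced protein is a constitutively active form. Both genotypes had the strain background C57BL/6, 129X1/SvJ per the labels. Cells were selected with microbeads against CD117, the receptor KIT on hematopoietic stem and progenitor cells. The labels give neither the promoter that drives the induced protein nor the age of the mice or the time after induction. Whether the 2 libraries of a genotype were made from different mice is not stated either, and the p-values then cover only library-to-library spread, which may be technical.

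Plasmacytoid dendritic cells are known for rapid secretion of type I interferon, and conventional dendritic cells for presenting antigen to T cells. Both arise in mouse bone marrow from progenitors that express KIT at decreasing levels. The E protein TCF4 (also called E2-2) holds the plasmacytoid state, and ID2, which binds E proteins and blocks their contact with DNA, favours the conventional one. IRF8 with BATF3 is needed for the cross-presenting conventional branch, and IRF4 for the other conventional branch.

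Total counts were between 22221798 and 27539149 per library. Kit itself was at 348 and 390 CPM (counts scaled to a common library size) in the inducible HIF-1α libraries. In the wild-type libraries it was at 268 and 242 CPM (edgeR adjusted p = 0.22). No unselected library was available, so how far the selection enriched the cells cannot be read from these levels. Neutrophil markers summed to 12950 and 5726 CPM in the inducible HIF-1α libraries and 18010 and 16310 CPM in wild type. None of 10 stem and progenitor markers was called by edgeR's quasi-likelihood test (adjusted p under 0.05), by DESeq2 or by limma-voom, and 2, Kit and Slamf1, were higher at an unadjusted p under 0.05. The biological coefficient of variation between replicates was 33.4% in inducible HIF-1α and 15.1% in wild type. The summed stem and progenitor markers stood at 2756 CPM in inducible HIF-1α replicate 1 and 1470 CPM in replicate 2, against 2499 and 2778 CPM in wild type. Mpo, a granule enzyme gene of myeloid progenitors, made up most of this sum, with 2076 and 910 CPM against 1964 and 2261 CPM. Without Mpo the sum was 681 and 559 CPM in the inducible HIF-1α libraries and 535 and 517 CPM in wild type. Because replicates spread more in inducible HIF-1α, values of the tested members are also given with either inducible HIF-1α library left out.

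Promoter windows of 250 bases before to 50 after a start site were taken from RefSeq (GRCm38.p6). They were found for 8 members, Irf8 having a pair of them. Shown are the windows of all 5 tested members whose groups did not overlap, which are Siglech, Irf4, Id2 and Cd209a (both inducible HIF-1α libraries lower) and Zbtb46 (both higher). Capitals mark the hypoxia response element cores ACGTG and GCGTG, to which HIF-1 binds, on either strand.
Siglech (chr7:55767934-55768233, + strand): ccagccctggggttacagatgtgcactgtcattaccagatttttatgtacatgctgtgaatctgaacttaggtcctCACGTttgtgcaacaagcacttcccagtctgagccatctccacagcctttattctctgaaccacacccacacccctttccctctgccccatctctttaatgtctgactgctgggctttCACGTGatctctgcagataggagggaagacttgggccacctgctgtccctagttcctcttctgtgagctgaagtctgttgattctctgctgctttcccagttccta
Irf4 (chr13:30748983-30749282, + strand): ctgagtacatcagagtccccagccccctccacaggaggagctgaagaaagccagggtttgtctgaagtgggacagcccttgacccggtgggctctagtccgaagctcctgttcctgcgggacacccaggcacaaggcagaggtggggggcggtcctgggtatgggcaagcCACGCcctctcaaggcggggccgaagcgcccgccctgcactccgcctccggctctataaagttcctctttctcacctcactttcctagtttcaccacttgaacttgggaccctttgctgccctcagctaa
Id2 (chr12:25096043-25096342, - strand): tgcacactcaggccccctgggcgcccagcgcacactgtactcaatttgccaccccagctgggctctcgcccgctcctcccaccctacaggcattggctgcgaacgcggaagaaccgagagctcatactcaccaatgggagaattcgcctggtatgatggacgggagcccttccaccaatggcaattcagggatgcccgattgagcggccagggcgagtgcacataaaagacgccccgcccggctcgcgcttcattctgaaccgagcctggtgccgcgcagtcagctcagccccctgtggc
Cd209a (chr8:3748935-3749234, - strand): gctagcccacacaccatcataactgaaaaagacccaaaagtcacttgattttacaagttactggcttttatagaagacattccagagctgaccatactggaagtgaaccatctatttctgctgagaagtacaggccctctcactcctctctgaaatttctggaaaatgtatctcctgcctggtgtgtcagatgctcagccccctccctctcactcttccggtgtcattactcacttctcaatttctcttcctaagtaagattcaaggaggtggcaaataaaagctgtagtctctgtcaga
Zbtb46 (chr2:181424339-181424638, - strand): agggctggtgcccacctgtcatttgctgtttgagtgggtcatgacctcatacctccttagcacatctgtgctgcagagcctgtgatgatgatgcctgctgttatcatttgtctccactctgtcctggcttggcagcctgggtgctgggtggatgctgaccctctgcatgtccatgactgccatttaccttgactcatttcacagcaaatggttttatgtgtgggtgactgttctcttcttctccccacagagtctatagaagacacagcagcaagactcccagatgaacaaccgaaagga
The Siglech window held ACGTG at 2 places, 1 of them the palindrome CACGTG, which is also an E-box (CANNTG). The Irf4 window held 1 GCGTG, read on the opposite strand. The windows of Id2 and Cd209a held no core, and 1 and 2 E-boxes. The Zbtb46 window, at a start site inside the annotated gene, held no core and 6 E-boxes. Of all 32851 windows in the table, 43.8% held a core and 72.3% an E-box. A core was found in the windows of 4 of 8 members (Batf3, Siglech, Irf8 and Irf4). The IRF element, GAAA repeated after a gap of 2 bases and searched on both strands, was in no window of a member and in 3.44% of all windows. These matches describe the letters only.

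Of the 10 members 8 had enough counts to be tested (filterByExpr). Siglech and Irf4 fell in the inducible HIF-1α libraries and no member rose by edgeR's quasi-likelihood test, while 1 member, Zbtb46, was higher at an unadjusted p under 0.05. DESeq2 and limma-voom called the same 2 members. Over all 14043 genes tested, 1% were called lower and 0.114% higher. With inducible HIF-1α replicate 1 left out, 5 members were called lower and 1 higher, but of all 14552 genes then tested 19.7% were called lower and 12.4% higher. With replicate 2 left out, 2 members were called lower, against 7.64% of 14515 genes called lower and 3.84% higher. Both inducible HIF-1α libraries lay below both wild-type libraries in 4 of the 8 tested members and above them in 1, against 28.2% and 24.6% of all genes tested. The median log2 fold change was -0.51 over the 4 tested plasmacytoid members and -1.31 over the 4 tested conventional members, against 0.00 over all genes. In these bulk libraries fewer cells of a type and less RNA per cell cannot be told apart.

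**Figure D1:**
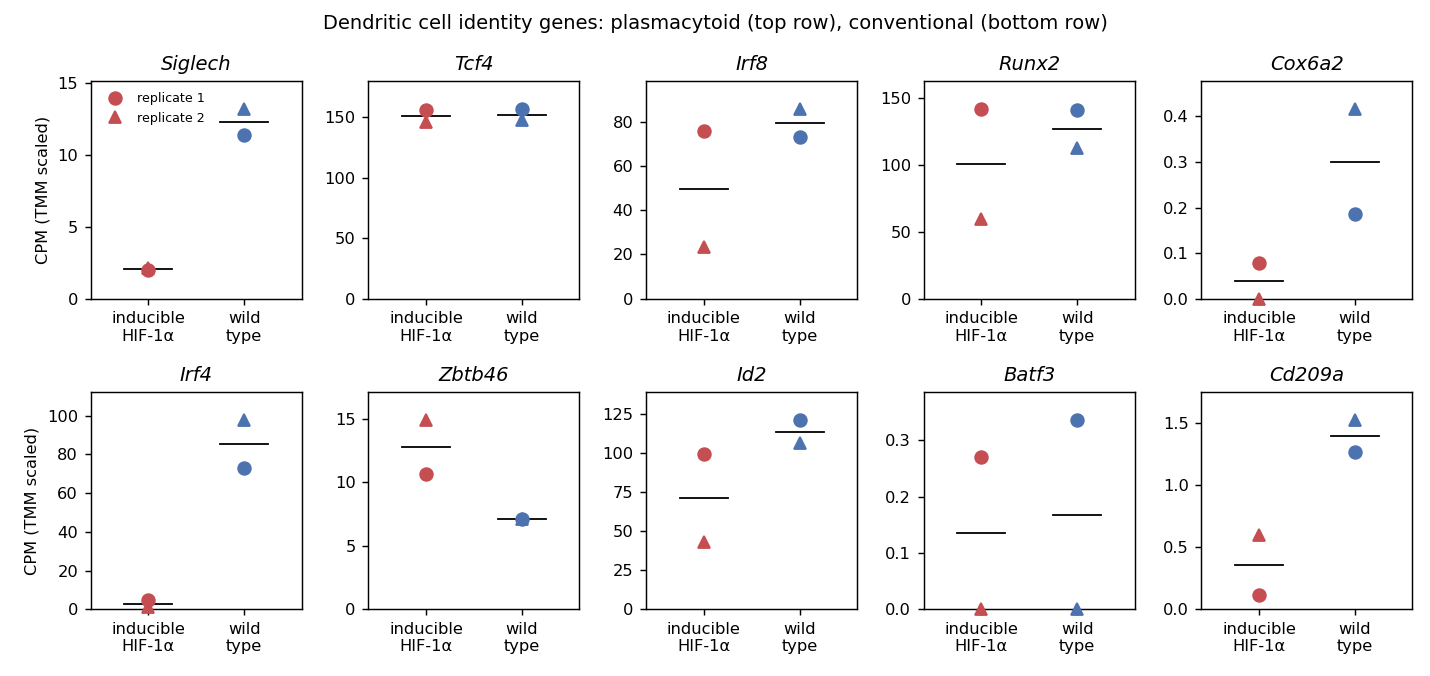
Level of each member in CPM (vertical axes start at 0 and differ between panels) in the inducible HIF-1α libraries (red) and the wild-type libraries (blue), with circles for replicate 1, triangles for replicate 2 and bars for the means. Siglech and Irf4 are low in both inducible HIF-1α libraries, Tcf4 is level, and Irf8, Runx2 and Id2 are low in inducible HIF-1α replicate 2 and not, or less so, in replicate 1.

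Siglech (Entrez 233274; chromosome 7, 55768154 to 55779448 in GRCm38) encodes a surface protein of mouse plasmacytoid dendritic cells that belongs to the Siglec family of lectins. It had 52 and 57 counts in the inducible HIF-1α libraries, against 304 and 285 counts in the wild-type libraries, or 2.01 and 2.13 CPM against 11.4 and 13.2 CPM. The groups did not overlap, and replicates of each genotype lay close together. Its log2 fold change was -2.56 ± 0.32 (SE; adjusted p = 0.0235), which is 5.89-fold lower. The log2 fold change was -2.52 without inducible HIF-1α replicate 1 and -2.56 without replicate 2. The call was lost with either wild-type library left out, in fits that called hardly any gene. The log2 fold change stayed between -2.65 and -2.45 under all 11 alternatives.

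Tcf4 (Entrez 21413; chromosome 18, 69343429 to 69687967) encodes the E protein on which plasmacytoid dendritic cells depend and is also transcribed in B cells and progenitors. Its level was 156 and 146 CPM in the inducible HIF-1α libraries and 156 and 147 CPM in the wild-type libraries. The groups overlapped, and the log2 fold change was -0.01 ± 0.17 (adjusted p = 0.984), with values between -0.06 and 0.07 over the alternatives and a sign that depended on the scaling.

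Irf8 (Entrez 15900; chromosome 8, 120736358 to 120756694), a transcription factor of monocytes, plasmacytoid cells and cross-presenting dendritic cells, differed between the inducible HIF-1α libraries. The gene model Gm20388 overlaps it on the same strand. It had 75.7 CPM in replicate 1 and 23.2 CPM in replicate 2, against 73.0 and 85.6 CPM in wild type. Only replicate 2 was below the wild-type range, and the log2 fold change of -0.68 ± 0.49 was not called (adjusted p = 0.521). With inducible HIF-1α replicate 1 left out it was -1.77 and called (adjusted p = 8.89e-15), and with replicate 2 left out it was -0.03 (adjusted p = 0.957). The first of these fits is the one that called 19.7% of all genes lower.

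Runx2 (Entrez 12393; chromosome 17, 44495987 to 44814797) is the master factor of osteoblasts and in mice also serves the exit of plasmacytoid dendritic cells from bone marrow. It followed the same split, with 142 and 59.4 CPM in the inducible HIF-1α libraries and 142 and 112 CPM in wild type. Its log2 fold change was -0.34 ± 0.39 (adjusted p = 0.695). It was -1.10 and called with inducible HIF-1α replicate 1 left out (adjusted p = 2.27e-07), and 0.19 with replicate 2 left out. Of 10 stromal, osteoblast and endothelial markers 8 were tested and 1 was called lower, with a summed level of 36.8 and 28.2 CPM in the inducible HIF-1α libraries and 75.5 and 78.8 CPM in wild type. The osteoblast genes Sp7 and Bglap had no count in the inducible HIF-1α libraries and 5 and 7 counts over the wild-type libraries. The bone matrix genes were detected, with Col1a1 at 0.349 and 0.561 CPM in the inducible HIF-1α libraries against 1.49 and 1.94 CPM in wild type, and Col1a2 at 2.56 and 5.54 CPM against 2.69 and 2.22 CPM. Alpl, a bone phosphatase gene, was at 0.0775 and 0.374 CPM against 1.23 and 0.969 CPM. The part of such cells in the result for Runx2 was not tested. Antisense genes and Supt3 overlap Runx2, and without a stated strand setting reads of opposite strands cannot be told apart.

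Cox6a2 (Entrez 12862; chromosome 7, 128205435 to 128206366), the muscle isoform of a cytochrome c oxidase subunit that mouse plasmacytoid dendritic cells also use, was too low to be tested and overlaps Itgad on the opposite strand. It had 2 and 0 counts in the inducible HIF-1α libraries and 5 and 9 counts in the wild-type libraries. The ratio of summed counts, scaled by library size, was 0.132 (exact 95% interval 0.0145 to 0.574, counting error only). Cox6a1, the isoform of most tissues, had 69.3 and 83.0 CPM in the inducible HIF-1α libraries and 65.6 and 68.5 CPM in wild type (log2 fold change 0.18 ± 0.19, adjusted p = 0.661).

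Irf4 (Entrez 16364; chromosome 13, 30749233 to 30766981) had the largest change of the 8 tested members. It encodes a factor of conventional dendritic cells that also acts in B cells and plasma cells. It had 121 and 29 counts in the inducible HIF-1α libraries and 1959 and 2117 counts in the wild-type libraries, or 4.69 and 1.09 CPM against 73.1 and 97.7 CPM. Both inducible HIF-1α libraries lay far below wild type, and replicate 2 was the lower. The log2 fold change was -4.89 ± 0.62 (adjusted p = 0.0235), which is 29.6-fold lower. It was -6.29 without inducible HIF-1α replicate 1 and -4.15 without replicate 2, both called. The call was lost without wild-type replicate 1 (log2 fold change -5.05) and without wild-type replicate 2 (-4.66), in fits that called hardly any gene. All 10 B cell markers had negative log2 fold changes, with 7 called lower and a summed level of 16.4 and 4.30 CPM in the inducible HIF-1α libraries against 429 and 394 CPM in wild type. Pax5 was at 0 in both inducible HIF-1α libraries. Of 7 plasma cell markers all had negative log2 fold changes, 1, Jchain, was called lower, and Tnfrsf17 was at 0 in both inducible HIF-1α libraries. The summed level was 241 and 120 CPM against 610 and 605 CPM, and Jchain made up most of the wild-type sum. Without Jchain the sum was 165 and 83.5 CPM in the inducible HIF-1α libraries and 159 and 146.5 CPM in wild type. Replicate 1 then lay above both wild-type libraries, but most of this sum was Xbp1. Xbp1 had 156 and 77.9 CPM in the inducible HIF-1α libraries and 137.5 and 124.7 CPM in wild type, and overlapped. In the other 6 of the 7 plasma cell markers both inducible HIF-1α libraries lay below both wild-type libraries, as in 28.2% of all genes tested. The part of these cells in the result for Irf4 was not tested.

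Zbtb46 (Entrez 72147; chromosome 2, 181371009 to 181493262) encodes a zinc finger factor that marks conventional dendritic cells in mice and is also transcribed in their erythroid progenitors and endothelial cells. It had 10.7 and 14.9 CPM in the inducible HIF-1α libraries and 7.13 and 7.11 CPM in wild type. It was the 1 tested member with both inducible HIF-1α libraries above wild type, at a log2 fold change of 0.85 ± 0.30 that was not called (adjusted p = 0.226). It was 1.06 and called with inducible HIF-1α replicate 1 left out (adjusted p = 0.00124), and 0.62 with replicate 2 left out (adjusted p = 0.201). Erythroid markers summed to 3648 and 6454 CPM in the inducible HIF-1α libraries and 2615 and 2775 CPM in wild type, and most of the inducible HIF-1α excess was Tfrc, the transferrin receptor gene. Without Tfrc the sum was 1386 and 3286 CPM in the inducible HIF-1α libraries and 1952 and 2253 CPM in wild type, and replicate 1 then lay below both wild-type libraries. Of the 10 erythroid markers 7 had positive and 3 negative log2 fold changes, and 1, Tfrc, was called higher. At an unadjusted p under 0.05, 5 were higher and 2 lower, the lower ones being Alas2 (-1.50) and Slc4a1 (-0.98). DESeq2 called 2 higher and 1 lower, and limma-voom 1 higher and 1 lower. Their part in the result for Zbtb46 was not tested. The endothelial genes Pecam1, Cdh5 and Kdr had log2 fold changes of -0.75, -1.09 and -0.54, none of them called.

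Id2 (Entrez 15902; chromosome 12, 25093799 to 25096092), the E protein inhibitor, had 99.3 and 43.3 CPM in the inducible HIF-1α libraries and 121 and 107 CPM in wild type. The groups did not overlap, but replicate 1 lay just under the wild-type range. The log2 fold change was -0.67 ± 0.37 (adjusted p = 0.409). Without inducible HIF-1α replicate 1 it was -1.40 and called (adjusted p = 7.5e-11), and without replicate 2 it was -0.16 (adjusted p = 0.689). Inside each library, where scaling cancels, the log2 ratio of Tcf4 to Id2 counts was 0.65 and 1.75 in the inducible HIF-1α libraries and 0.37 and 0.47 in wild type. That of Irf8 to Irf4 was 4.01 and 4.42 in the inducible HIF-1α libraries and 0.00 and -0.19 in wild type. Neither of these ratios overlapped between genotypes. That of Tcf4 to Tcf3 was 0.92 and 0.16 in the inducible HIF-1α libraries and 0.98 and 0.94 in wild type, also without overlap. That of Runx2 to Runx1 was -0.41 and -1.16 against -0.31 and -0.64, and that of Irf8 to Id2 was -0.39 and -0.90 against -0.73 and -0.32, and both overlapped. The smallest exact permutation p that 2 libraries against 2 allow is 0.333.

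Batf3 (Entrez 381319; chromosome 1, 191098414 to 191108943), the partner of IRF8 in cross-presenting dendritic cells, had 7 and 0 counts in the inducible HIF-1α libraries and 9 and 0 counts in wild type. A difference was not detectable at this depth (ratio 0.717, exact 95% interval 0.227 to 2.17). Cd209a (Entrez 170786; chromosome 8, 3743395 to 3748984), a lectin gene of conventional and monocyte-derived dendritic cells and a mouse relative of human DC-SIGN, had 3 and 16 counts in the inducible HIF-1α libraries and 34 and 33 counts in wild type. The groups did not overlap, and here replicate 1 was the lower of the inducible HIF-1α libraries. The log2 fold change was -1.94 ± 0.91 (adjusted p = 0.339), with -1.21 without replicate 1 and -3.49 without replicate 2 (adjusted p = 0.332 and 0.0565).

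**Figure D2:**
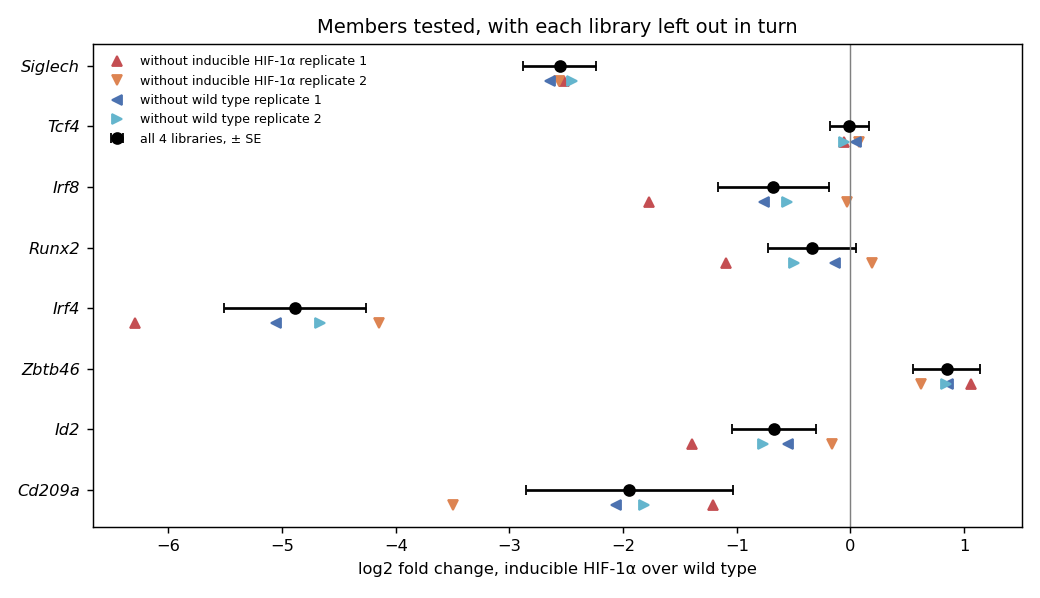
Log2 fold change of inducible HIF-1α over wild type (horizontal axis) for the 8 members tested. Black points are fits to all 4 libraries with their SE and coloured triangles are fits that leave out 1 library. Siglech and Tcf4 move little. Zbtb46 runs from 1.06 without inducible HIF-1α replicate 1 to 0.62 without replicate 2, and Irf8 from -1.77 to -0.03.

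Levels were compared between genes per kilobase of exon, with all annotated exons of a gene joined, which understates genes with many isoforms such as Tcf4. In inducible HIF-1α the order of mean levels was Id2 (29.3 CPM per kb), Runx2 (11.4), Irf8 (7.01), Tcf4 (5.51), Zbtb46 (1.5), Siglech (0.613), Irf4 (0.589), Cd209a (0.226), Batf3 (0.0849) and Cox6a2 (0.0570). In wild type it was Id2 (46.7 CPM per kb), Irf4 (17.4), Runx2 (14.4), Irf8 (11.2), Tcf4 (5.55), Siglech (3.62), Cd209a (0.882), Zbtb46 (0.837), Cox6a2 (0.443) and Batf3 (0.105). In inducible HIF-1α the library values overlapped between neighbours from Runx2 through Irf8 to Tcf4, and from Siglech through Irf4, Cd209a and Batf3 to Cox6a2, so the order within these runs is not resolved. In wild type those of Irf4 and Runx2, and those of Cd209a and Zbtb46, overlapped.

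Further genes of plasmacytoid dendritic cells came from a list of 16, of which 14 were tested, 2 fell and none rose by edgeR's quasi-likelihood test. At an unadjusted p under 0.05, 7 were lower and 1 higher, DESeq2 called 5 lower and 1 higher, and limma-voom called 3 lower. Spib, a transcription factor of plasmacytoid dendritic cells and B cells, had 1.90 and 2.06 CPM in the inducible HIF-1α libraries and 130.4 and 133.0 CPM in wild type. Ly6d, a surface protein of the lymphoid path to plasmacytoid and B cells, had 0.387 and 0.112 CPM in the inducible HIF-1α libraries and 13.5 and 13.3 CPM in wild type (log2 fold change -5.72 ± 0.54, adjusted p = 0.016). Both are shared with B cells, whose markers were lower as given above. Tlr9, the receptor for unmethylated DNA, had a log2 fold change of -2.72 ± 0.54 and was not called (adjusted p = 0.0803). Pacsin1 had no count in the inducible HIF-1α libraries and 58 over the wild-type libraries, at least 21.0-fold lower against 3 counts over the group, and was not called (adjusted p = 0.085). Bcl11a, a factor upstream of Tcf4 in mice and named after its value was seen, had 150 and 227 CPM in the inducible HIF-1α libraries and 108 and 102 CPM in wild type (adjusted p = 0.159). Also named after its value was seen, Bst2 had 9.80 and 6.10 CPM in the inducible HIF-1α libraries and 4.52 and 6.28 CPM in wild type. Its log2 fold change was 0.56 ± 0.38, and the groups overlapped. Smim5, Irf7 and Zeb2 had log2 fold changes of 0.004, -0.055 and -0.119. For Irf7 the inducible HIF-1α libraries lay on either side of wild type, at 6.39 and 1.38 CPM against 4.96 and 3.09 CPM. The same held for Smim5, at 8.79 and 14.6 CPM against 11.6 and 11.7 CPM. None of these genes, Bcl11a and Bst2 included, was called in the fit to all 4 libraries. The median log2 fold change of the list was -1.04, with 11 negative and 3 positive. With inducible HIF-1α replicate 1 left out, 9 of the list were called lower and 1 higher, against 19.7% and 12.4% of all genes in that fit. With replicate 2 left out, 7 were called lower and 1 higher, against 7.64% and 3.84% of all genes. Spib, Ly6d, Tlr9 and Pacsin1 were called lower in both of these fits, Tlr9 at -3.77 and -2.08. Bcl11a was the gene called higher in both.

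Of 24 further conventional dendritic cell genes 23 were tested, 1 fell and none rose by edgeR's quasi-likelihood test. At an unadjusted p under 0.05, 11 were lower and none higher, DESeq2 called 6 lower and limma-voom 1 lower. Cd83, a surface protein of mature dendritic cells and activated B cells, had 0.465 and 0.561 CPM in the inducible HIF-1α libraries and 7.84 and 7.02 CPM in wild type (log2 fold change -3.84 ± 0.43, adjusted p = 0.017). Clec4a4, a lectin gene of conventional cells, had a log2 fold change of -1.38 ± 0.24 (adjusted p = 0.0567), and Itgax, encoding CD11c, one of -1.55 ± 0.29 (adjusted p = 0.072). Of the list, 8 genes are used as markers of the cross-presenting branch, here named after their values were seen. None was called by edgeR's quasi-likelihood test over all libraries. Xcr1 had 11.9 and 11 CPM in the inducible HIF-1α libraries and 11.5 and 15.1 CPM in wild type, and overlapped, as did Naaa (log2 fold change -0.35 ± 0.29), Itgae (0.12 ± 0.70) and Cd24a (-0.02 ± 0.23). Clec9a had 3.68 and 2.36 CPM in the inducible HIF-1α libraries and 4.74 and 5.26 CPM in wild type (-0.73 ± 0.41, adjusted p = 0.417). Cadm1 had 3.18 and 0.486 CPM against 8.85 and 8.54 CPM (-2.25 ± 0.75, adjusted p = 0.208), and Wdfy4 had 152 and 85.1 CPM against 186 and 242 CPM (-0.86 ± 0.30, adjusted p = 0.229). Dpp4 had 27.2 and 28.6 CPM against 42.9 and 43.3 CPM (-0.63 ± 0.20, adjusted p = 0.193). These 4 of the 8 genes did not overlap between genotypes, and both inducible HIF-1α libraries were the lower. The same held for 28.2% of all genes tested. The median of the list was -0.86, and 21 of 23 log2 fold changes were negative. With inducible HIF-1α replicate 1 left out 17 were called lower, and with replicate 2 left out 9 were, against the same 19.7% and 7.64% of all genes. Cd83, Clec4a4 and Itgax were called lower in both fits. Of the cross-presenting markers Cadm1 and Dpp4 were too. Clec9a, Wdfy4 and Naaa were called lower only with replicate 1 left out, and Xcr1, Itgae and Cd24a in neither fit. Monocyte and macrophage markers, which share genes such as Itgax with dendritic cells, summed to 1091 and 456 CPM in the inducible HIF-1α libraries and 1594 and 1605 CPM in wild type, with 6 of 12 called lower. Their part in these results was not tested.

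**Figure D3:**
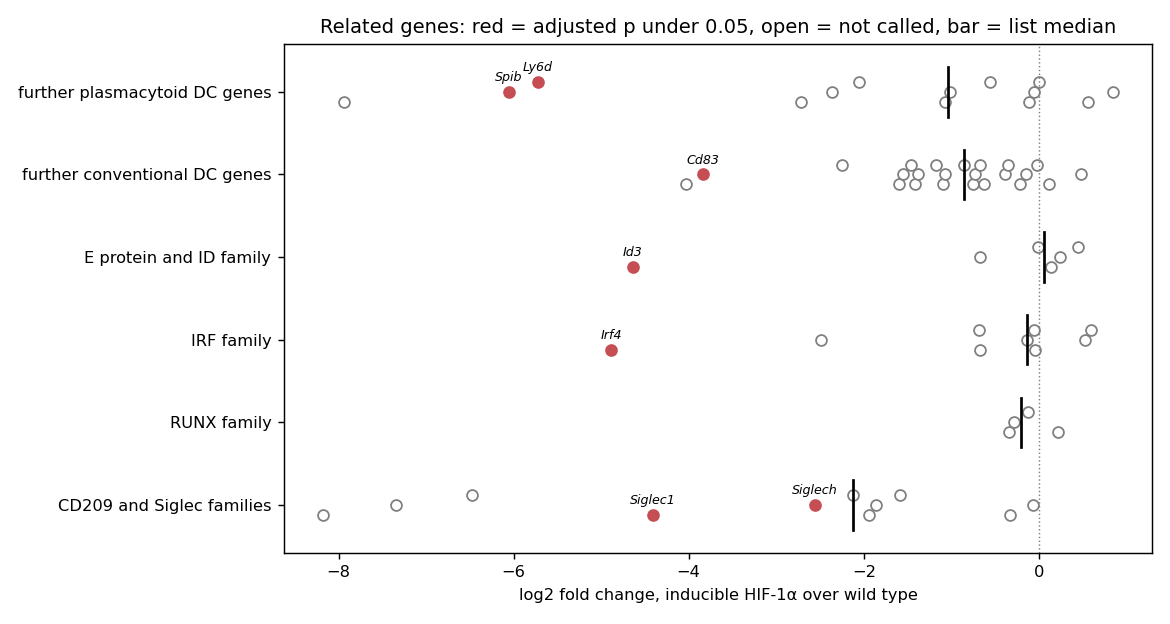
Log2 fold change of inducible HIF-1α over wild type (horizontal axis) for each tested gene of 6 lists. Filled points passed the test, open points did not, and bars are list medians. Fitted values of genes at 0 in both inducible HIF-1α libraries (Pacsin1, Cd209b, Cd209f and Cd209g) depend on the prior count. The bars run from -2.13 for the CD209 and Siglec genes to 0.06 for the E protein and ID family.

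Among relatives of the members, Id3 was the called gene of the E protein and ID family. It encodes an E protein inhibitor of lymphocytes and had 0.620 and 0.225 CPM in the inducible HIF-1α libraries and 12.4 and 8.86 CPM in wild type (log2 fold change -4.64 ± 0.55, adjusted p = 0.019). The E protein genes Tcf3 (0.45 ± 0.25) and Tcf12 (0.24 ± 0.18) were not called. In the IRF family Irf4 was the 1 called gene of 9. Irf5, a factor of macrophages and B cells, had a log2 fold change of -2.49 ± 0.49 (adjusted p = 0.0811), and Irf2 one of -0.67 ± 0.20. With either inducible HIF-1α library left out Irf5 was called lower (-3.52 without replicate 1 and -1.86 without replicate 2), as was Id3. With replicate 1 left out Irf2 and Cbfb were called lower and Tcf3 and Jun higher, and none of these 4 was called with replicate 2 left out. None of the 4 RUNX family genes tested and none of the 4 tested BATF and AP-1 genes was called by edgeR's quasi-likelihood test, DESeq2 or limma-voom, and 0 of them had an unadjusted p under 0.05. Runx3 (0.21 ± 0.22), Cbfb (-0.29 ± 0.31), Jun (0.91 ± 0.46) and Batf (0.75 ± 1.04) had the smallest p of these lists.

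Siglech and Cd209a belong to lectin families of which several genes act in phagocytes. All 11 tested genes of the CD209 and Siglec list, both members included, had negative log2 fold changes, with a median of -2.13 and 2 called. Over all 14043 genes tested, 7004 log2 fold changes were negative. Both inducible HIF-1α libraries lay below wild type in 9 of the 11, against 28.2% of all genes tested, and 2 overlapped. Siglec1, the sialoadhesin of macrophages, had 0.387 and 0.412 CPM in the inducible HIF-1α libraries and 8.62 and 8.59 CPM in wild type (log2 fold change -4.41 ± 0.42, adjusted p = 0.016). Siglece, a myeloid inhibitory lectin gene, had a log2 fold change of -2.13 ± 0.39 (adjusted p = 0.0663) and Cd33 one of -1.59 ± 0.31 (adjusted p = 0.0772). Siglec1, Siglece and Cd33 were called lower with either inducible HIF-1α library left out. Cd209b, Cd209d, Cd209f and Cd209g had no count in the inducible HIF-1α libraries and 21, 27, 66 and 37 counts over the wild-type libraries. Cd209c had 104 and 206 counts in the inducible HIF-1α libraries and 136 and 156 counts in wild type (log2 fold change -0.06 ± 0.42). It overlapped between genotypes, as did Siglecf (-0.335 ± 0.391), both named after their values were seen. CD209 genes are close copies of each other, so their single values are uncertain.

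**Figure D4:**
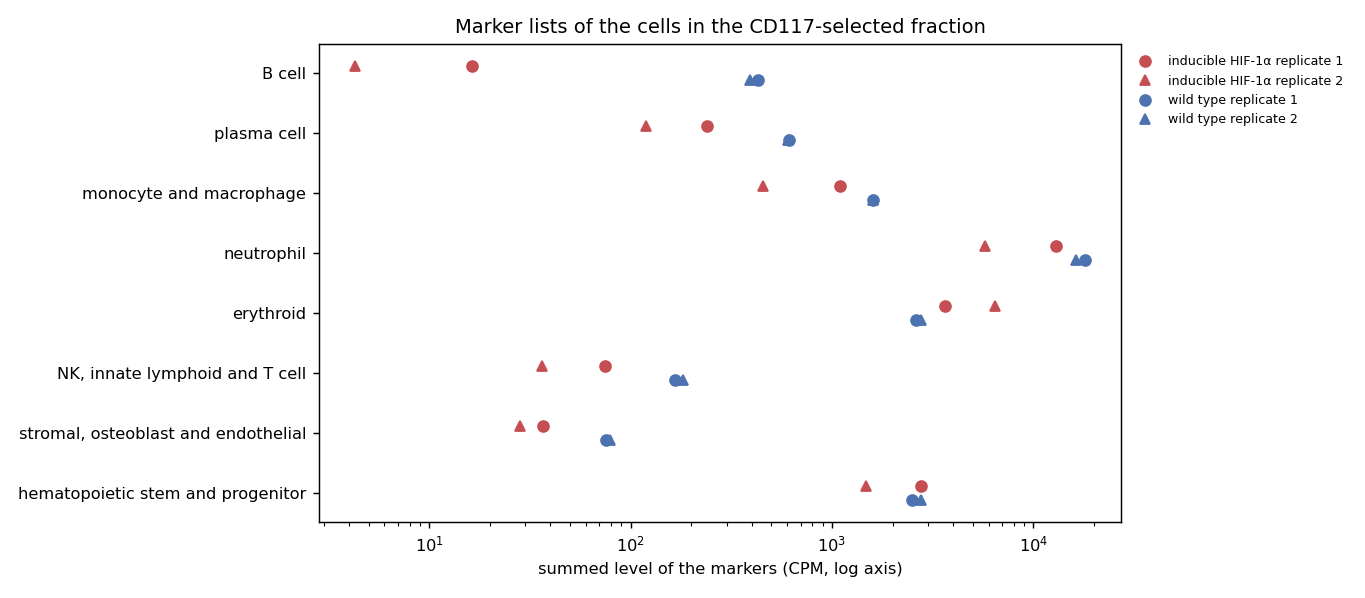
Summed level of each marker list in CPM (horizontal log axis) in the inducible HIF-1α libraries (red) and the wild-type libraries (blue), with circles for replicate 1 and triangles for replicate 2. B cell markers are lower in both inducible HIF-1α libraries. So are the sums of the plasma cell, monocyte and macrophage, neutrophil, NK, innate lymphoid and T cell, and stromal lists. Without Jchain the plasma cell sum, then mostly Xbp1, is lower only in replicate 2. The erythroid sum is higher in both, which without Tfrc holds only for replicate 2, and the low stem and progenitor sum of replicate 2 comes from Mpo.

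Of 8 neutrophil markers 2 were called lower, of 8 tested NK, innate lymphoid and T cell markers 2, and of 8 tested stromal, osteoblast and endothelial markers 1, with none higher by edgeR's quasi-likelihood test, DESeq2, limma-voom or an unadjusted p under 0.05. Their part in the results for the dendritic cell genes was not tested.

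The genes with the profile nearest to that of Siglech over the 4 libraries, by Euclidean distance of centred log2 CPM among 13037 others, were Slc11a1, Il13ra1, Pramel3, Cd209b and Nid1, at distances of 0.132 to 0.214. Of these Slc11a1, a metal transporter gene of phagocytes, had 4.03 and 4.12 CPM in the inducible HIF-1α libraries and 19.9 and 23.5 CPM in wild type. Pramel3 and Cd209b had no count in the inducible HIF-1α libraries. Nearest to Zbtb46 were Clstn1, Izumo4, Fance, Plagl1 and Frmd5, at distances of 0.018 to 0.078. Clstn1 had 32.5 and 45.7 CPM in the inducible HIF-1α libraries and 22.1 and 22.0 CPM in wild type.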

How the data were processed

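RNA was measured in 2 inducible HIF-1α and 2 wild-type libraries. The deposited table holds raw counts per Entrez gene. Per the submitters' processing notes, bcl2fastq, CASAVA 1.8, TopHat and edgeR were used with build mm10. No source used here names the counting tool or whether it used strand. Entrez identifiers were paired with RefSeq symbols (GRCm38.p6), with 81 of 24415 unmatched. Genes passing filterByExpr (minimum count 10) were tested in R 4.3.3 with edgeR 4.0.16 (TMM scaling, quasi-likelihood F test, Benjamini-Hochberg adjustment over all 14043 genes, threshold 0.05). The script was tested on simulated data. CPM values use TMM library sizes, and standard errors (SE) of log2 fold changes were taken from the F statistic (absolute log2 fold change over √F). At these depths 3 counts correspond to 0.112 to 0.138 CPM. Replicates differed by a chi-square of 112 (inducible HIF-1α) and 22.1 (wild type) per degree of freedom, so no library was a copy. DESeq2 1.42.0 and limma 3.58.1 served as alternatives, with other scalings and filters, a replicate block and each library left out.

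The members and gene lists were chosen with earlier results of these data known. Named were all members, each called gene of the related lists and the 2 uncalled ones with the smallest p per list, and for Siglech and Zbtb46 the 5 nearest profiles. No sequence of Tcf4 is shown.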

Additional observations from a re-analysis of the deposited data

How the results depend on the processing

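Siglech and Irf4 were called under all scalings, filters and tools run, and their calls were lost without either wild-type library. The number of plasmacytoid members called ranged from 0 to 3 with 1 library left out, and that of conventional members from 0 to 3. For the further plasmacytoid genes it ranged from 0 to 10 and for the further conventional genes from 0 to 17, alternatives chosen after seeing the data. Over all genes 157 were called, against 97 with total count scaling, 971 with DESeq2, 747 with no filter, 78 with at least 1 CPM in all 4 libraries, and 0 to 4669 with 1 library left out. The count of 0, without wild-type replicate 2, came with 703 genes at an unadjusted p under 0.05. With 1 library left, a genotype is assumed to vary like the other.

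The log2 fold change of Tcf4, near 0, turned positive with size factors of the DESeq2 type (0.00), total count scaling (0.066), DESeq2 (0.00) and no filter (0.005), and ran from -0.06 to 0.072 with 1 library left out. Runx2 ran from -1.098 to 0.192, Cbfb from -0.85 to 0.154 and Batf from -1.043 to 1.565 with 1 library left out, the inducible HIF-1α libraries giving both ends. The cause was not tested. Of 300 single-gene values, 233 kept direction and call, 13 lost the call, all without a wild-type library, and 45 gained it. Cd209a did not reach the filter of 1 CPM in every library and has no value there. Same-numbered libraries share only a number (correlation of their deviations 0.08 over 14043 genes). With the replicate block 381 genes were called, and Siglech and Irf4 again among the members.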
